A study of Mus musculus with 8 samples.

Results

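Etnppl encodes ethanolamine-phosphate phospho-lyase, the enzyme that breaks phosphoethanolamine down to acetaldehyde, ammonia and phosphate. The set described here joins it with 7 genes whose products make, use or clear phosphoethanolamine or the lipid built from it: Etnk1, Etnk2, Pcyt2, Cept1, Pisd, Pemt and Phospho1. The 8 genes were found by their symbols, 1 row each, among 24344 symbols of the expression table. Etnppl was selected on its own value in the comparison below, for being far higher after fasting, so its values are given as a description with no test. The other 7 were added for their place in the pathway, with earlier results of these data known.

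Tissue came from homogenates of the occipital cortex, the rear part of the neocortex, of C57BL/6J mice at postnatal day 35. Of the 8 RNA-seq libraries, 4 came from mice deprived of food for 48 h and 4 from mice fed ad libitum, and no other treatment or allele is named in the labels. The labels do not say whether each library is 1 mouse, so the p-values measure the spread between libraries. The series' title concerns a histone modification made from the ketone body beta-hydroxybutyrate, and the comparison asks which transcripts differ after fasting.

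Phosphatidylethanolamine is one of the main phospholipids of brain membranes. In the CDP-ethanolamine branch of the Kennedy pathway, kinases phosphorylate ethanolamine to phosphoethanolamine, a second enzyme couples it to CTP, and a phosphotransferase joins it to diacylglycerol. A separate route decarboxylates phosphatidylserine inside mitochondria. Phosphoethanolamine that is not used can be cleaved by the lyase, which in brain is known from astrocytes, or dephosphorylated.

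Etnppl, the member highest above its fed level, has a promoter unlike those of Etnk1, the most abundant member, and Phospho1, also higher after fasting. For that reason the 250 bases before the RefSeq start of these 3 members are shown. They are on build GRCm38.p6, plus strand, at chr3:130617198-130617447 for Etnppl, chr6:143166980-143167229 for Etnk1 and chr11:95824250-95824499 for Phospho1. Capitals mark CG dinucleotides.
Etnppl: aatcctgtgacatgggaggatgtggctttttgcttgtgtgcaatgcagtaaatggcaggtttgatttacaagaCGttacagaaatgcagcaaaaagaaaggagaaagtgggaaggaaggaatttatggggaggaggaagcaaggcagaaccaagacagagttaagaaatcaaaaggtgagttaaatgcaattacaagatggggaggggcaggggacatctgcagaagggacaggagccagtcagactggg
Etnk1: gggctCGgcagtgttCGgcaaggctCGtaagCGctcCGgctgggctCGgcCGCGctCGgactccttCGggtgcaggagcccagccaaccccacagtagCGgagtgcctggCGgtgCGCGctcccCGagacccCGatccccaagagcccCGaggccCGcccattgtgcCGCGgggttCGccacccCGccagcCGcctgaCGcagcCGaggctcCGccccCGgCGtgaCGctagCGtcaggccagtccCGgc
Phospho1: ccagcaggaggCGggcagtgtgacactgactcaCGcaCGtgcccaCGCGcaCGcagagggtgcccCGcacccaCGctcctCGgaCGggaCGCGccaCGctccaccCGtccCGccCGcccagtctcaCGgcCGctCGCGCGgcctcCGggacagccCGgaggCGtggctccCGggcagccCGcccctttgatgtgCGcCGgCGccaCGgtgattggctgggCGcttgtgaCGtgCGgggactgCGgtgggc

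The Etnppl window held 1 CG dinucleotide and was 46.0% G or C. The Etnk1 window held 31 at 74.8%, and the Phospho1 window 34 at 75.6%. Over 32851 such windows of 27025 genes the median was 6 CG dinucleotides, and 7.87% of windows held fewer than that of Etnppl. A further Etnppl start in RefSeq also had 1 in its window. Of the other members, RefSeq windows were matched for Etnk2 (15 CG), Cept1 (20, 21 and 0), Pisd (3 and 26) and Pemt (1 and 2), the last 3 with several starts each. A window with few CG dinucleotides was thus not particular to Etnppl. Pcyt2 had no match.

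Few of the binding motifs searched lay near these starts. The search covered both strands from 250 bases before to 50 after each start, in 12 windows of 7 members. Neither Etnppl window held any of them: the palindromic glucocorticoid response element (AGAACA, any 3 bases, TGTTCT), a single arm of it (AGAACA), the full cyclic AMP response element, the FoxO motif GTAAACA, the E-box CACGTG bound by clock factors, the PPAR direct repeat (AGGTCA, any 1 base, AGGTCA) and the palindromic C/EBP motif. The palindromic glucocorticoid element was absent from all 12 windows also with 1 mismatch allowed. The single arm AGAACA, which the palindrome contains, was found before 1 start of Cept1 and after 1 start of Pemt, and 19.0% of all windows held it. The E-box was found 215 bases before the start of Phospho1 (chr11:95824285-95824290), in 7.15% of all windows. The shares of all windows for the others were 0.00913% for the palindrome, 1.79% for the cyclic AMP element, 3.65% for FoxO, 0.0396% for the PPAR repeat and 0.183% for C/EBP. A match is a description of letters, and no match says nothing about a factor's binding elsewhere.

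Levels are in FPKM, which corrects fragment counts for transcript length and library depth, so that different genes can be compared. Differences are fasted minus fed on log2(FPKM + 1), which understates those of low genes. Depth can only be estimated roughly from the steps between low values, at 17700000 to 21600000 fragments per library. Ad libitum replicate 3 held both the X-inactivation transcript Xist (32.2 FPKM) and Y-linked transcripts (20.2 FPKM in sum), while the other libraries held one or the other. Where leaving it out ended the call of a member, of a named pathway gene or of a list's genes, that is said beside the result. Over all 12377 genes with at least 1 FPKM in 4 or more libraries, limma called 3198 at an adjusted p under 0.05 (Benjamini-Hochberg), 1183 higher and 2015 lower in fasted cortex. The split moved with the scaling of libraries, to 1753 and 1936 with median ratios, 1792 and 1909 with quantiles, and 1585 and 534 with equal sums.

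Etnppl (chromosome 3, 130617448 to 130637521, plus strand) was the member in which the groups lay farthest apart. Ad libitum replicates 1 to 4 held 2.52, 4.02, 3.31 and 2.83 FPKM. Fasted replicates 1 to 4 held 17.7, 16.0, 17.5 and 18.5 FPKM. The lowest fasted library was thus well above the highest fed one. The means were 3.17 FPKM ± 0.651 and 17.4 ± 1.06 (SD, n = 4 each), a ratio of 5.49 and a log2 difference of 2.15. On log2(FPKM + 1) no tested gene had a larger difference, and Ccl17, which encodes a chemokine, came next at 1.65. Ccl17 was at 0.389 FPKM fed and 3.34 FPKM fasted, so by the ratio of means it stood above Etnppl. In bulk tissue fewer or more cells of a type and less or more RNA per cell cannot be told apart.

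**Figure D1:**
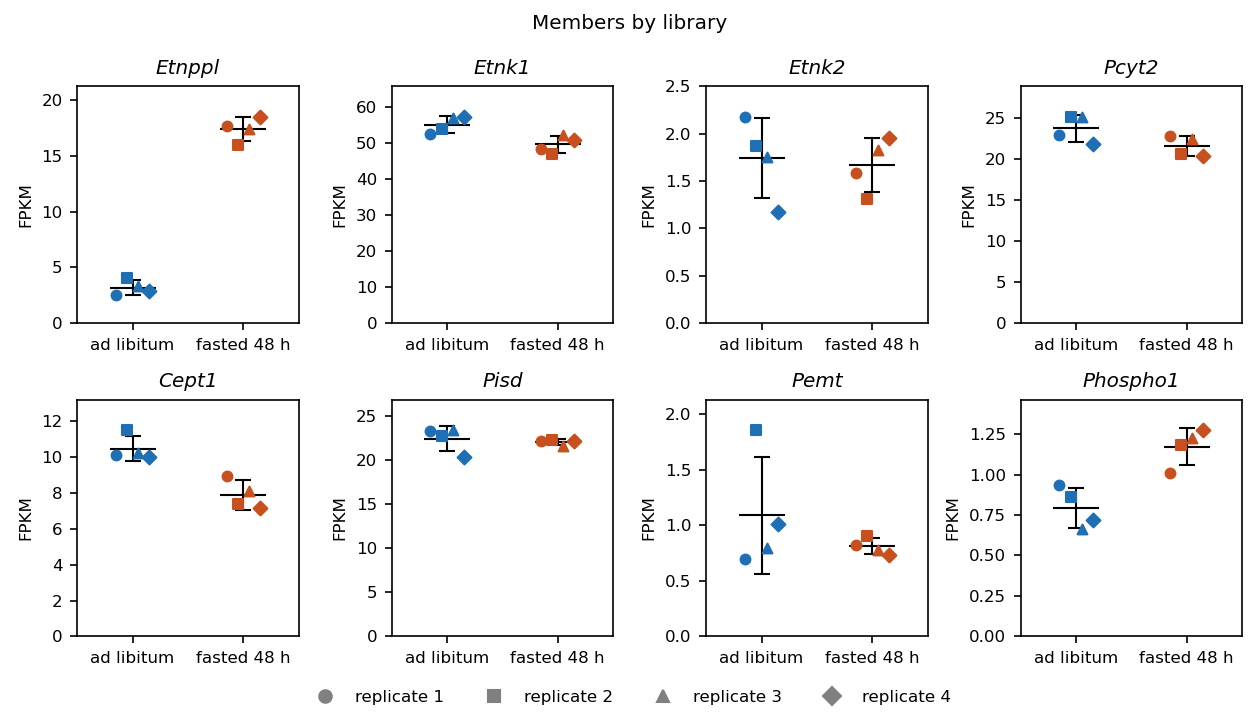
FPKM (vertical axes, each from 0) of the 8 members in each library, with ad libitum libraries in blue and fasted libraries in orange; marker shapes give the replicate number, and bars show the mean ± SD of 4 libraries. Etnppl lay between 2.52 and 4.02 FPKM in fed and between 16.0 and 18.5 FPKM in fasted libraries, and Cept1 was lower in all fasted libraries.

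The spread of Etnppl was larger in fed libraries only relative to the mean. The coefficient of variation was 20.5% in fed and 6.07% in fasted libraries, while the SD was 0.651 and 1.06 FPKM. The difference in spread was not tested. Among the fed libraries replicate 2 was the highest and replicate 1 the lowest, and among the fasted ones replicate 2 was the lowest. Among all tested genes Etnppl ranked at the 15.9 to 26.0 percentile of FPKM in fed libraries and at the 71.1 to 75.8 percentile in fasted libraries. Its longest annotated transcript has 4468 bases, on which the lowest value stood for roughly 223 fragments.

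None of the nearest genes on either side was called higher. Col25a1, a collagen gene that ends 17571 bases before Etnppl, was at 4.32 FPKM fed and 3.86 fasted, a log2 difference of -0.13 (limma adjusted p = 0.231). Sec24b, which encodes a coat protein of secretory vesicles, was at 12.4 and 12.6 FPKM (limma adjusted p = 0.854). On the other side Ostc, a subunit gene of the oligosaccharyltransferase 58391 bases away, fell from 22.6 to 17.1 FPKM, a log2 change of -0.38 (limma adjusted p = 0.0059, and 0.0839 with equal-sum scaling). The ribosomal protein gene Rpl34 was at 20.0 and 16.6 FPKM (limma adjusted p = 0.0673). No annotated gene overlaps Etnppl.

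Between the ethanolamine kinases Etnk1 and Etnk2, which make phosphoethanolamine, nearly all of the transcript level was Etnk1. This leaves out the choline kinases, of which Chka also accepts ethanolamine and stood at 13.7 FPKM fed and 16.7 FPKM fasted. Etnk1 (chromosome 6, 143167221 to 143232307) was the most abundant member in each library. It was at 52.4, 53.9, 56.8 and 57.2 FPKM in ad libitum replicates 1 to 4. In fasted replicates 1 to 4 it was at 48.2, 47.0, 52.2 and 50.9 FPKM. All fasted libraries lay below all fed ones, by a narrow margin, with means of 55.1 ± 2.31 and 49.6 ± 2.39 (SD, n = 4 each). The log2 difference of -0.15 (SE 0.0542) missed the threshold, with a limma adjusted p of 0.0622. With the replicate number as a block it passed (limma adjusted p = 0.013), and it was lower in fasted cortex within each of the 4 numbers. With equal-sum scaling the difference was -0.03 (limma adjusted p = 0.898). An annotated antisense gene, 1700126G02Rik, overlaps Etnk1 and has no row in the table, and whether the libraries keep strand is not stated.

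Etnk2 (chromosome 1, 133363572 to 133380336), the other ethanolamine kinase, was scarce. Its fed libraries held 2.18, 1.87, 1.76 and 1.17 FPKM and its fasted libraries 1.58, 1.31, 1.83 and 1.95 FPKM. The groups overlapped, and the log2 difference of -0.03 had an interval of -0.29 to 0.22 (95%; limma adjusted p = 0.863). Its sign turned with equal-sum or quantile scaling and without ad libitum replicate 1 or fasted replicate 2. Its level was 2.05% to 4.15% of that of Etnk1 in fed and 2.80% to 3.84% in fasted libraries. The summed FPKM of Etnk1 and Etnk2 ran from 54.6 to 58.6 in fed and from 48.3 to 54.0 in fasted libraries.

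Pcyt2 (chromosome 11, 120610087 to 120617936), which couples phosphoethanolamine to CTP in the rate-limiting step of the pathway, differed little. Fed replicates 1 to 4 held 22.9, 25.1, 25.1 and 21.8 FPKM and fasted replicates 1 to 4 held 22.8, 20.6, 22.5 and 20.4 FPKM. The highest fasted libraries lay within the fed range. The log2 difference was -0.13 with an interval of -0.27 to 0.01 (95%; limma adjusted p = 0.148). Pcyt2 stood at 0.373 to 0.451 of the summed level of Etnk1 and Etnk2 in fed libraries and at 0.387 to 0.459 in fasted ones.

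Cept1 (chromosome 3, 106502260 to 106547802), which encodes the phosphotransferase that completes phosphatidylethanolamine or phosphatidylcholine, fell. Fed replicates 1 to 4 held 10.1, 11.5, 10.2 and 9.99 FPKM. Fasted replicates 1 to 4 held 8.96, 7.37, 8.11 and 7.14 FPKM. The groups did not overlap, with means of 10.5 ± 0.697 and 7.90 ± 0.822 (SD, n = 4 each), 24.5% apart. The log2 change was -0.37 (SE 0.0727; limma adjusted p = 0.00437), and the fasted library was lower within each of the 4 replicate numbers. With equal-sum scaling it was -0.25 (limma adjusted p = 0.0905). That scaling moved the median of all genes by 0.109, and relative to that median Cept1 was at -0.34 under it and under the unscaled values. Dram2, a lysosomal membrane gene that overlaps the start of Cept1 on the other strand, was at 6.25 and 6.04 FPKM (limma adjusted p = 0.657). Dennd2d, which overlaps its end, was under 0.1 FPKM in all libraries.

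Pisd (chromosome 5, 32736301 to 32785646), the phosphatidylserine decarboxylase of mitochondria, was level. Fed libraries held 23.3, 22.8, 23.4 and 20.3 FPKM and fasted libraries 22.2, 22.4, 21.7 and 22.2 FPKM. The log2 difference of -0.02 had an interval of -0.14 to 0.10 (95%; limma adjusted p = 0.804), and its sign turned with each of the 3 scalings. Reads of Pisd may be shared with annotated pseudogene copies, of which Pisd-ps1 (chromosome 11, 3125904 to 3131004) had means of 43.2 ± 2.93 FPKM in fed and 47.3 ± 5.41 FPKM in fasted cortex (SD, n = 4; limma adjusted p = 0.292). The value of Pisd is uncertain for that reason. Pcyt2 to Pisd, the ratio of the 2 routes at the transcript level, was 0.981 to 1.10 in fed and 0.920 to 1.04 in fasted libraries, and the groups overlapped.

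Pemt (chromosome 11, 59970614 to 60046489), the methyltransferase that turns phosphatidylethanolamine into phosphatidylcholine and is known mainly from liver, was near the limit of measurement. Fed libraries held 0.695, 1.85, 0.796 and 1.01 FPKM and fasted libraries 0.825, 0.906, 0.779 and 0.736 FPKM, roughly 14 to 35 fragments each. It reached 1 FPKM in 2 libraries and was not tested with the others. An exact two-sided permutation test over the 70 assignments gave p = 0.429 for the log2 difference of -0.18, which was -0.01 without ad libitum replicate 2. No difference was detectable at this depth.

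Phospho1 (chromosome 11, 95824499 to 95832140), a phosphatase of phosphoethanolamine and phosphocholine best known from mineralizing cartilage and bone, was low but higher in fasted libraries. Fed libraries held 0.933, 0.860, 0.667 and 0.716 FPKM and fasted libraries 1.01, 1.18, 1.23 and 1.27 FPKM, roughly 24 to 51 fragments each. The groups did not overlap, with a log2 difference of 0.28 (SE 0.0747; limma adjusted p = 0.0191) and a ratio of means of 1.48. It passed the limit of 1 FPKM in 0 fed and in 4 fasted libraries, so its entry to the test rested on the group where it was high. With no such limit the limma adjusted p was 0.0234. The call ended without ad libitum replicate 3 (limma adjusted p = 0.0601) and without fasted replicate 3 (0.0523).

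Phospho1 shares 2067 bases with Abi3, a gene known from microglia, on the opposite strand. Without a statement on strand the reads of the shared stretch cannot be told apart. Abi3 rose from 3.62 to 4.50 FPKM, a log2 change of 0.25 (limma adjusted p = 0.0301), and it missed the threshold when ad libitum replicate 3 or fasted replicate 1, 2 or 4 was left out (limma adjusted p from 0.0588 to 0.0893). Its part in the Phospho1 difference was not tested. Zfp652, a zinc finger gene whose annotated span encloses Phospho1 on the same strand, was at 5.41 and 6.09 FPKM (limma adjusted p = 0.157).

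Etnppl and Phospho1 aside, 5 members passed the limit in both groups. Of these limma called 1 lower (Cept1) and 0 higher (1 further lower, Etnk1, and 0 higher at an unadjusted p under 0.05), where 16.3% of all tested genes were called lower, 9.56% higher and 25.8% in either direction. Etnk1 was a further lower call with the replicate block. Groups did not overlap for 2 of the 5, Etnk1 and Cept1, against 27.6% of all tested genes. These shares do not set the pathway genes apart from the background.

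In fed cortex the order of mean levels ran Etnk1, Pcyt2, Pisd, Cept1, Etnppl, Etnk2, Pemt and Phospho1. In fasted cortex it ran Etnk1, Pisd, Pcyt2, Etnppl, Cept1, Etnk2, Phospho1 and Pemt. Pcyt2 and Pisd, which changed places, overlapped in their FPKM in both groups. In fed cortex Etnk2 and Pemt also overlapped, as did Pemt and Phospho1. In fasted cortex Etnppl stood above Cept1 in 4 of 4 libraries and below Pcyt2, and Phospho1 stood above Pemt in 4 of 4 libraries.

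Set against other transcripts of the pathway in the same library, Etnppl went from below Cept1 to above it. Etnppl stayed below Etnk1 and Pcyt2. It was 4.81% to 7.45% of Etnk1 in fed libraries and 33.5% to 36.7% in fasted ones. Against Pcyt2 the ratio was 0.110 to 0.160 and 0.774 to 0.907. Against Cept1 it was 0.249 to 0.350 and 1.97 to 2.59. These ratios contain the Etnppl values on which the gene was chosen.

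**Figure D2:**
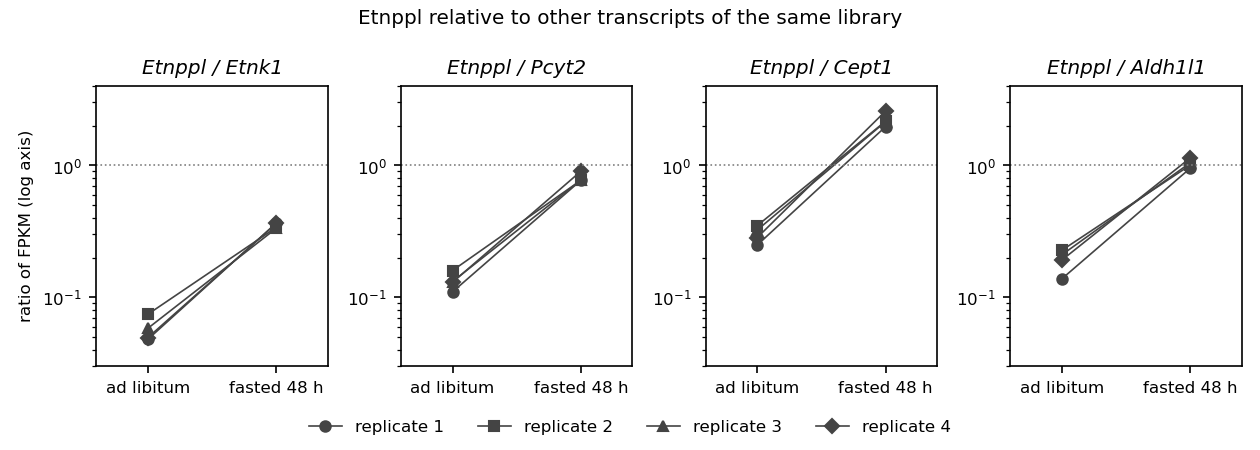
Ratio of Etnppl FPKM to that of Etnk1, Pcyt2, Cept1 and the astrocyte marker Aldh1l1 in the same library (vertical log axis), with ad libitum on the left and fasted on the right; lines join libraries with the same replicate number and the dotted line marks equal levels. The ratio to Cept1 went from 0.249 to 0.350 in fed to 1.97 to 2.59 in fasted libraries, and that to Aldh1l1 from 0.138 to 0.227 to 0.955 to 1.14.

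Markers of astrocytes, the cell type in which the lyase is known, went in both directions. Of 14 markers, 2 rose and 4 fell, where 9.56% of all tested genes were called higher and 16.3% lower. The markers had a median log2 difference of -0.09, against -0.02 over all tested genes. With the replicate block 3 rose and 5 fell, and with equal-sum scaling 3 rose and 1 fell. Their summed level was 1056 to 1154 FPKM in fed and 1034 to 1158 FPKM in fasted libraries, so that Etnppl went from 0.218% to 0.352% of that sum to 1.52% to 1.79%. Aldh1l1, which encodes a folate enzyme used to mark astrocytes, had means of 16.6 ± 1.61 FPKM in fed and 16.8 ± 1.18 FPKM in fasted cortex (SD, n = 4; limma adjusted p = 0.879). The glutamate transporter gene Slc1a2 was at 290.4 and 273.3 FPKM (limma adjusted p = 0.268).

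The water channel gene Aqp4 fell from 23.8 to 13.3 FPKM, a log2 change of -0.79 (limma adjusted p = 2.1e-05). The connexin gene Gja1 had a log2 change of -0.21 and lost its call with equal-sum scaling (limma adjusted p = 0.614). Gfap, the intermediate filament of astrocytes, had a log2 change of -0.28 (limma adjusted p = 0.0273), and the call ended without ad libitum replicate 2 (0.0523) or 3 (0.0861). Another connexin gene, Gjb6, rose from 15.6 to 27.2 FPKM, by 0.77, and the growth factor receptor gene Fgfr3 by 0.38 (limma adjusted p = 0.000342 and 0.00302). Slc4a4, a bicarbonate transporter gene, fell by 0.20 (limma adjusted p = 0.0158, and 0.642 with equal-sum and 0.0629 with quantile scaling). Gja1, Gjb6, Fgfr3 and Slc4a4 were named after their values were seen.

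**Figure D3:**
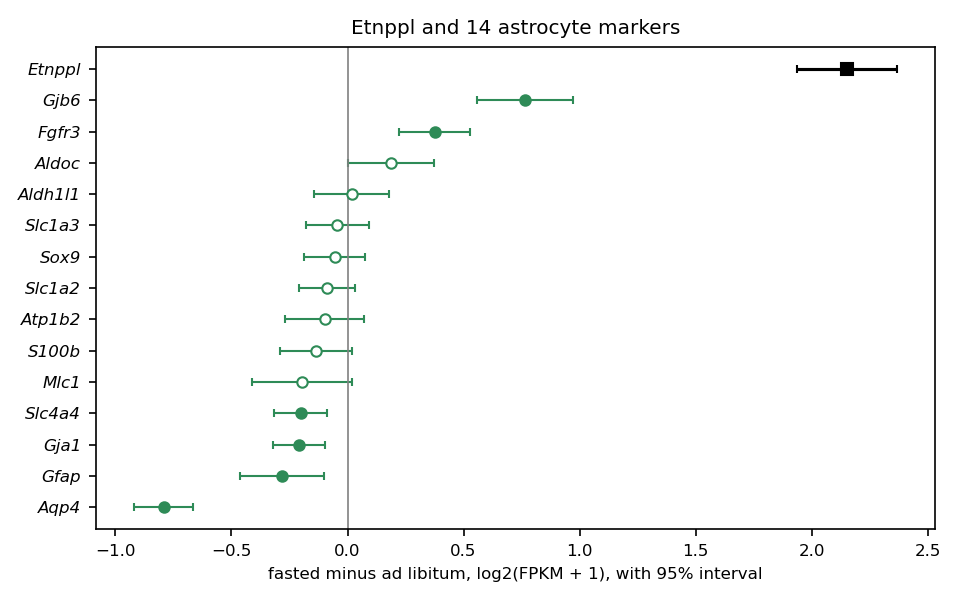
Log2 differences of Etnppl (black square) and 14 astrocyte markers (green circles, filled where the limma adjusted p was under 0.05), fasted minus ad libitum on log2(FPKM + 1), with unadjusted 95% intervals. The markers lay between -0.79 (Aqp4) and 0.77 (Gjb6), and Etnppl, chosen for its value, at 2.15. The interval drawn for Etnppl makes no allowance for that choice.

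Most markers of the other cell types did not pass the test. Of all tested genes 9.56% were called higher and 16.3% lower. Of 10 microglial markers 4 fell (6 with the replicate block, 9 without ad libitum replicate 4, 3 without ad libitum replicate 3), with a summed level of 127.1 to 178.0 FPKM in fed and 117.4 to 134.9 FPKM in fasted libraries. Of 5 markers of oligodendrocyte precursors 3 fell, Olig1, Olig2 and Gpr17, all named after their values were seen. The others, likewise named, were Pdgfra at 0.06 (limma adjusted p = 0.51) and Cspg4 at -0.02 (0.854) on the log2 scale. Sums of the 5 were 58.7 to 65.2 FPKM in fed and 47.9 to 54.4 FPKM in fasted libraries, and Olig1 alone had means of 28.6 and 22.1 FPKM. With equal-sum scaling 0 of these markers were called (limma), and with no lower limit 2. When any library was left out there were also 2, ad libitum replicate 4 and fasted replicate 1 excepted. Of 10 neuronal markers 0 rose and 2 fell, of 8 oligodendrocyte markers 1 rose and 1 fell, and of 8 tested endothelial and mural markers 0 rose and 1 fell (limma; at an unadjusted p under 0.05, 1 higher in each of these lists and 2, 1 and 2 lower). With the replicate block 1 neuronal marker rose and 2 fell, and 2 oligodendrocyte markers rose and 2 fell. The block also called 1 endothelial or mural marker higher and 1 lower. Without ad libitum replicate 3, and with equal-sum scaling, 0 neuronal markers were called. Of 5 tested markers of choroid plexus, ependyma and meninges 1 fell, and the sum of all 10 was 40.7 to 51.5 FPKM fed and 25.9 to 45.5 fasted. Most of that sum was Igf2, with means of 28.3 and 23.3 FPKM. The choroid plexus markers Ttr, Folr1 and Kl all missed the limit for the test, and Ttr had means of 0.671 FPKM fed and 1.33 fasted. These genes were named after their values were seen. Of the liver and blood markers, 0 of 3 tested were called by limma, 0 also at an unadjusted p under 0.05, and the liver gene Alb was under 0.1 FPKM in all libraries. Hbb-bs, a beta-globin gene that missed the limit for the test, was at 0.00254 to 0.00366 FPKM in fed libraries and at 6.35, 0.00254, 14.5 and 12.5 FPKM in fasted replicates 1 to 4. Its values are uncertain because its sequence is close to that of other beta-globin genes, and the summed level of the list was 173.1 to 323.1 FPKM in fed and 149.9 to 338.1 FPKM in fasted libraries. The part of these cell types in the Etnppl difference was not tested.

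Other sources and uses of phosphoethanolamine were looked at as a list. Over all tested genes 9.56% were called higher and 16.3% lower. Of 13 tested genes of the list 0 rose and 2 fell, with a median log2 difference of -0.01 (limma; 2 and 4 with the replicate block, 2 and 3 at an unadjusted p under 0.05). Each of the other ways of scaling gave 1 or 2 higher calls. Sgpp2, a phosphatase of sphingosine 1-phosphate, fell from 3.49 FPKM ± 0.168 to 2.28 ± 0.284 (SD, n = 4 each), by 0.46 on the log2 scale (limma adjusted p = 0.00158). Sphk2, the kinase that makes sphingosine 1-phosphate, had a log2 change of -0.30 (limma adjusted p = 0.0231), which missed the threshold when ad libitum replicate 1, 2 or 3 or fasted replicate 3 or 4 was left out (0.0511 to 0.0677) and with equal-sum scaling (0.234). Sgpl1, the lyase that releases phosphoethanolamine from sphingosine 1-phosphate, was at 7.22 and 8.37 FPKM (limma adjusted p = 0.059), a gene named after its value was seen. Ept1, the other ethanolamine phosphotransferase (now Selenoi), was at 8.27 and 7.05 FPKM (limma adjusted p = 0.0729), and was likewise named after its value was seen.

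The neighbouring choline and phosphatidylserine reactions held calls in both directions. Of all tested genes 9.56% were called higher and 16.3% lower, with a median of -0.02. Of the 16 tested genes of this list 4 rose and 3 fell, with a median log2 difference of 0.05 (4 and 4 with the replicate block). Without ad libitum replicate 3 there were 2 higher calls, and with equal-sum scaling 0 lower ones. Chka, a choline kinase that also accepts ethanolamine, rose in every fasted library above every fed one, from 13.7 FPKM ± 0.514 to 16.7 ± 0.559 (SD, n = 4 each), by 0.27 on the log2 scale (limma adjusted p = 0.00302). Lpin1, a phosphatase that supplies diacylglycerol, rose by 0.25 (limma adjusted p = 0.0057). Ptdss2, which makes phosphatidylserine from phosphatidylethanolamine, fell by 0.31 (limma adjusted p = 0.0123), and Aldh7a1, an aldehyde dehydrogenase of betaine formation, by 0.26 (0.0143). With equal-sum scaling the last pair were at 0.228 and 0.386.

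The next list holds genes of acyl chain exchange and ether lipids on phosphatidylethanolamine. Of 15 tested genes 0 rose and 4 fell, with a median of -0.09 on the log2 scale (limma; 0 and 4 also with the replicate block, 0 and 5 at an unadjusted p under 0.05). Over all tested genes 9.56% were called higher and 16.3% lower, with a median of -0.02. Over the alternatives the lower calls of the list ran from 1 to 4, with 1 without ad libitum replicate 3, without fasted replicate 1 or with equal-sum scaling. Tmem86b, which encodes a lysoplasmalogenase, went from 1.80 to 1.16 FPKM (limma adjusted p = 0.0169). The acyltransferase gene Lpgat1 and the fatty alcohol-forming reductases Far2 and Far1 had log2 changes of -0.22, -0.21 and -0.16. With equal-sum scaling their limma adjusted p was 0.56, 0.529 and 0.825, and without ad libitum replicate 3 it was 0.0781, 0.0562 and 0.102. Far1 missed the threshold whichever library was left out, fasted replicate 3 excepted.

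A further list held relatives of Etnppl among class III aminotransferases, Alas1, and genes of pyridoxal phosphate, the cofactor of Etnppl. Of the relatives, Abat and Oat passed the limit for the test, and Phykpl and Agxt2 missed it. Abat, Agxt2 and Alas1 are named only to describe the list. In its 7 tested genes limma made 0 calls at an adjusted p under 0.05. At an unadjusted p under 0.05 1 was lower, and a model with the replicate block called 1 higher and 1 lower. With median-ratio or equal-sum scaling 1 was called higher. Over all tested genes 9.56% were called higher and 16.3% lower. Phykpl is the lyase closest to Etnppl in function and missed the limit for the test. It had means of 0.741 ± 0.163 FPKM in fed and 0.766 ± 0.110 FPKM in fasted cortex (SD, n = 4). Oat, ornithine aminotransferase, was at -0.19 on the log2 scale (limma adjusted p = 0.11), and passed with the replicate block (0.00519) and without ad libitum replicate 4 (0.0197). Prosc, a pyridoxal phosphate-binding protein gene, was at 0.11 (limma adjusted p = 0.152). Among 11 genes that handle aldehydes, acetate or ammonia, the products of the lyase or their successors, 0 rose and 2 fell (limma; 2 and 2 with the block, 1 and 2 at an unadjusted p under 0.05). With median-ratio or quantile scaling 2 rose and 2 fell, and with equal-sum scaling 2 rose and 0 fell. The shares over all tested genes were, as above, 9.56% and 16.3%. The genes of this list that fell were the acetyl-CoA synthetase genes Acss2 and Acss1, with log2 changes of -0.38 and -0.33 (limma adjusted p = 0.00109 and 0.00566; 0.0735 and 0.14 with equal-sum scaling).

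**Figure D4:**
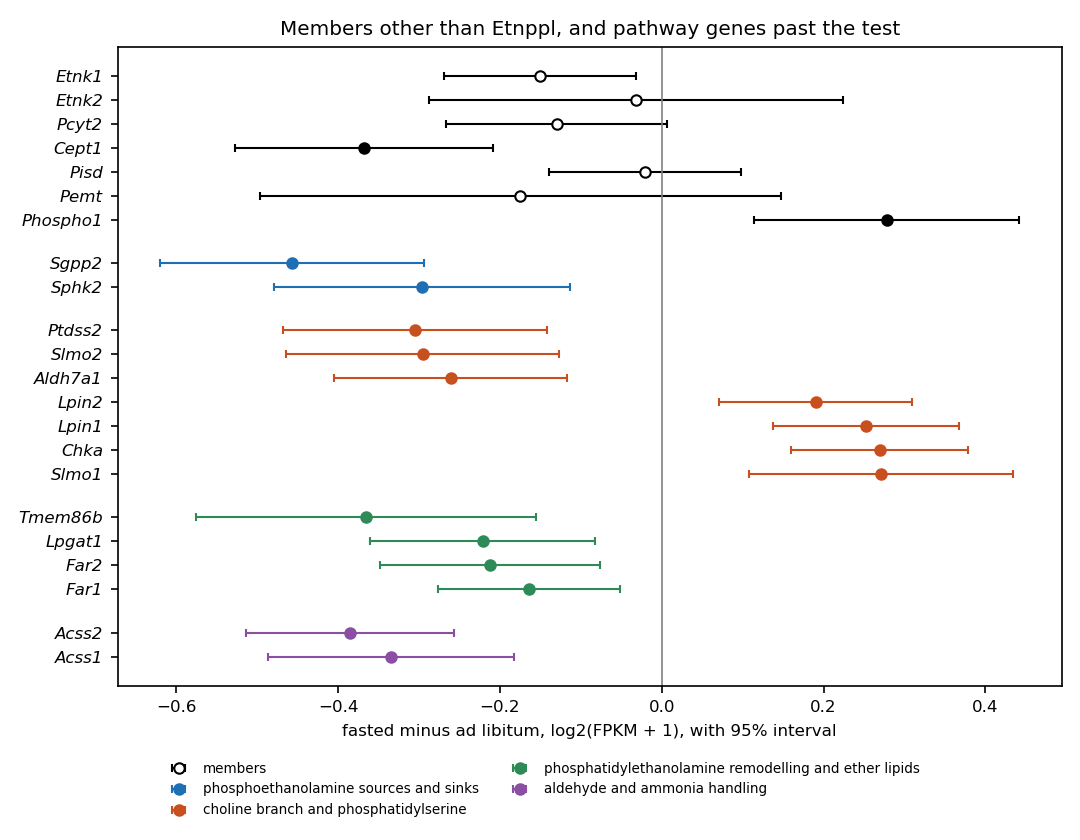
Log2 differences, fasted minus ad libitum on log2(FPKM + 1), of the 7 members other than Etnppl (black; filled where the limma adjusted p was under 0.05) and of the genes called in 4 lists of neighbouring reactions (colours), with unadjusted 95% intervals; Pemt comes from the fit with no lower limit. Cept1 lay at -0.37 and Phospho1 at 0.28, and the called genes of the lists between -0.46 (Sgpp2) and 0.27.

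The genes whose levels followed Etnppl most closely over the 8 libraries had Pearson correlations of 0.989 to 0.993 on log2(FPKM + 1), given as a description since a group difference alone makes such values. They were Dapk1, Igfbp3, Stx17, Ncapd3, Hif3a, Mau2, Slc25a16 and Tsc22d3. Igfbp3, a binding protein gene for insulin-like growth factors, held 2.16, 3.01, 2.97 and 2.49 FPKM in fed and 6.38, 5.74, 5.75 and 6.33 FPKM in fasted libraries. Its order within each group followed that of Etnppl in part, with r = 0.896 over deviations from the group means. The most opposed were Chml, Zeb2os, Hapln1 and Fabp7, at -0.988 to -0.997. Of 12376 genes compared 212 had r above 0.95 and 193 were as strongly opposed.

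With the group means removed, the closest genes were others: Ppcdc, Zfp560, Pitrm1, Nxpe3 and Aaed1, with r of 0.951 to 0.982 over the 8 deviations. Their r over the levels themselves ran from -0.821 to 0.500, and 0 of the 8 genes closest by level were among the 8 closest by deviation. Among members r with Etnppl over levels was 0.861 for Phospho1, -0.849 for Cept1, -0.777 for Etnk1, -0.575 for Pcyt2, -0.159 for Pisd and -0.064 for Etnk2. Over deviations the same members were at -0.079, 0.476, 0.252, 0.601, 0.150 and 0.209. The libraries share their depth and tissue piece across all genes, and 8 points give such values little weight.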

How the data were processed

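RNA from cortex homogenates gave 8 libraries, grouped by the treatment label. Per the labels' protocols, the cortex was frozen in liquid nitrogen and lysed in QIAzol before RNA extraction. Per the submitters' processing notes, TopHat and build mm10 were used. The sources used here give no version, quantifying program, annotation or strand setting. The authors deposited 1 table of 24883 rows in FPKM, a unit that no label or header names and that rests on the description of the table and on its values, and where a symbol repeats the row with the highest mean was used (282 symbols, no member).

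Genes with at least 1 FPKM in 4 libraries were fitted with limma 3.58.1 (R 4.3.3, trend and robust moderation) on log2(FPKM + 1), with group as the only term and Benjamini-Hochberg adjustment over 12377 genes. The fit was tested on simulated data. Positions are from GENCODE M21 (GRCm38, the assembly of mm10), which held 23284 of 24344 symbols. Promoters are from RefSeq (GRCm38.p6). Python 3.11.15, pandas 2.3.3 and matplotlib 3.10.9 made tables and figures. Depth was read from FPKM times length in genes with 1 transcript, with 21 to 33 genes at the step, and is uncertain.

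Members, lists and motifs were chosen with earlier results of these data known. Genes were named by this rule: all members; the 8 most and 4 least correlated with Etnppl, and 5 by deviations; from each pathway list up to 4 called genes with the smallest p, or 2 where none was called; Etnppl's nearest and the members' overlapping genes; and Aqp4, Aldh1l1, Slc1a2 and Gfap. Others are said to be named after their values were seen.

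Replicate numbers are shared between groups. Deviations of same-numbered libraries correlated at 0.574, 0.496, 0.382 and 0.523 over tested genes, all above 0.1, so the replicate block is given beside results it changes. Over 11156 autosomal coding genes the values were 0.335, 0.193, 0.0758 and 0.371. Different numbers that are both odd or both even also correlated (0.165 to 0.381), and odd with even did so negatively (-0.546 to -0.256). Odd-numbered libraries held Y-linked transcripts and even-numbered ones Xist, ad libitum replicate 3 holding both, so the numbers follow sex. The pairing comes from the data, not from a label. Alternatives were another pseudocount, no lower limit, 3 scalings, the block, a term for odd and even numbers, plain moderation, summed rows and leaving out each library.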

Additional observations from a re-analysis of the deposited data

Results flagged for a closer look

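In groups of 4 libraries, 1 library lay far from the others in 7 of the 136 groups checked (68 genes in both groups) by Dixon's critical value at the 95% level. Chance gives about 1 in 20.

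Among the members this held for Cept1 in the fed group, where ad libitum replicate 2 was at 11.5 FPKM and the others at 9.99 to 10.2. Without it the Cept1 log2 change was -0.33. Pisd-ps1 was marked in both groups, at 47.5 FPKM in ad libitum replicate 2 against 41.4 to 41.9, and at 39.2 FPKM in fasted replicate 1 against 49.9 to 50.2. Sgpp2 was at 1.86 FPKM in fasted replicate 2 against 2.37 to 2.48. Aif1, a microglial marker, was at 1.34 FPKM in fasted replicate 3 against 0.984 to 1.03. Alas2, an erythroid gene, was at 2.29 FPKM in ad libitum replicate 1 against 1.17 to 1.32. Zeb2os was at 1.65 FPKM in fasted replicate 4 against 1.77 to 1.78. The cause of these gaps was not tested.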

How the results depend on the processing

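Of 166 recomputed values for the 8 members and the 2 totals of called genes, 151 kept their direction and side of the threshold (for values without a test, stayed within 1 SD). These include 17 values of Etnppl, which was chosen for its difference, so their stability is no support for it. With a pseudocount of 0.1 the Etnppl difference was 2.44. With the replicate block Etnk1 passed the test at -0.15. With equal-sum scaling Cept1 was at -0.25 and no longer passed, Etnk2 was at 0.0524, Pisd at 0.10 and the genes called lower fell to 534. In that scaling a single microRNA row took 11.2% of the total of ad libitum replicate 2. Other single microRNA rows took 10.6% in ad libitum replicate 3 and 6.29% in fasted replicate 2. With quantile scaling Etnk2 was at 0.0130, Pisd at 0.0070 and the genes called higher were 1792. With median-ratio scaling Pisd was at 0.0076. Summed with its pseudogene copies, an alternative chosen after seeing the data, Pisd was at 0.0572. When 1 library was left out, Etnk2 ran from -0.14 to 0.0431 and Phospho1 from 0.24 to 0.31. The cause was not tested. With the block 1773 genes were higher and 2733 lower. Of 206 recomputed counts for lists, motifs and similar genes, 170 stayed within 1.5 times, 18 were lower and 18 higher. Depth limits Pemt, Phospho1 and Etnk2 most.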

Other observations

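A pseudogene copy of Pisd had higher levels than the gene. Pisd-ps1 was at 41.4, 47.5, 41.7 and 41.9 FPKM in ad libitum replicates 1 to 4 and at 39.2, 49.9, 49.9 and 50.2 FPKM in fasted replicates 1 to 4. Pisd itself lay between 20.3 and 23.4 FPKM. Pisd-ps2 was at 8.31 FPKM ± 0.999 and 7.62 ± 0.520 (SD, n = 4 each), and Pisd-ps3 was listed at 0 in all libraries. The sum of Pisd and its copies ran from 69.4 to 79.8 FPKM in fed and from 68.5 to 80.2 FPKM in fasted libraries, and the groups overlapped.

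A pair of genes for carriers of lipids between mitochondrial membranes moved apart. Slmo2 (now Prelid3b), whose product carries phosphatidylserine toward the decarboxylase, fell from 25.1 to 20.3 FPKM (limma adjusted p = 0.0167), and Slmo1 (now Prelid3a) rose from 9.99 to 12.3 FPKM (limma adjusted p = 0.0209). Without ad libitum replicate 3 neither passed (0.0531 and 0.0518). Slmo1 also lost its call without fasted replicate 1 (0.0551), and Slmo2 with equal-sum scaling (0.262). Both were named after their values were seen.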
